A study of Sus scrofa with 2 samples.

Results

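The genes described here take up, carry, make, store and release fat in newborn pig muscle. Members were the table entries with the symbol FABP3, FABP4, FABP5, LPL, CD36, ADIPOQ, SCD, PPARG, PLIN2 or PNPLA2, together with entries whose deposited protein name marked a fatty acid-binding protein, a lipoprotein lipase, platelet glycoprotein 4, adiponectin, an acyl-CoA desaturase, a perilipin or patatin-like phospholipase domain-containing protein 2. This gave 14 of the 12535 entries with at least 1 read in either library: 8 of the 10 symbols were found, and 6 entries came in by protein name alone. FABP4 and ADIPOQ had no entry and were not analysed here, so nothing is said of their RNA. Of the 14 entries, 5 were grouped as muscle-fibre genes, 4 as fat-cell genes and 2 as genes of other cells. The remaining 3 are further entries named after the heart-type binding protein. This grouping rests on general knowledge of the genes and not on these data.

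RNA-seq was performed on biceps femoris, a hind limb muscle, of cloned piglets made by somatic cell nuclear transfer (SCNT) and sampled on Day 1 after birth. The abnormal cloned group was 1 pool of 3 piglets with developmental failure, described in the methods as having an enlarged tongue, impaired standing and walking and an umbilical defect. The normal cloned group was 1 pool of 4 piglets according to the methods and of 3 according to the labels. All cloned piglets came from fibroblasts of male large white pigs: the abnormal piglets and 2 normal piglets from embryonic fibroblasts of the same male, and the other 2 normal piglets from fibroblasts of a different male's ear. Donor and phenotype were thus partly confounded. Each pool gave 1 library, no value has a replicate check, and every test below compares the libraries and not the conditions.

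Muscle obtains most of its fat from the blood. Lipoprotein lipase splits the triglyceride of lipoproteins at the capillary wall, CD36 helps the released fatty acids across the membrane, and fatty acid-binding proteins carry them through the cytosol. Fatty acids that are not oxidised are esterified and kept in lipid droplets coated by perilipins, from which PNPLA2 releases them again, while PPARG is the master regulator of fat cell formation. Levels below are unique reads and RPKM (reads per kb of transcript, scaled to the library's unique reads), and differences are log2 ratios of RPKM, abnormal over normal. The 95% intervals cover counting error only. Where 2 values are joined, the abnormal library comes first. A gene was called differentially expressed (a DEG) when its false discovery rate (FDR, Benjamini-Hochberg over the two-sided Audic-Claverie test) did not exceed 0.001 and its RPKM differed at least 2-fold, a log2 ratio of 1 or more in either direction.

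The depth was 6.38 M unique reads for the abnormal pool and 6.52 M for the normal pool, at which 3 reads equal 0.470 and 0.460 RPM (reads scaled to 1 M). Mitochondrial transcripts took 36.0% and 46.1% of the reads. Over the 7493 genes counted 10 times or more in each library, the log2 ratio had a median of 0.36, and 68.7% of genes were higher in the abnormal library. This median depended on transcript length: it was 0.03 for transcripts of up to 500 bases and 0.69 for those over 5000 bases, where reads covered 85.6% and 75.8% of the stretch expected of reads placed at random. For this reason each member is given beside the median of the genes nearest to it in length. The part of length and of library composition in the members' differences was not tested. ACTA1, the skeletal muscle actin, was abundant in both libraries at an RPKM of 42258 and 37387.

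The fat genes differed in direction. FABP3, the heart and muscle carrier, fell 2.04-fold in the abnormal library, and 2 of the 3 further heart-type entries fell with it. CD36 was 1.63-fold higher, short of the DEG rule, and PLIN2 and SCD differed by less than 0.1 on the log2 scale. An entry named as perilipin 4, the coat protein of nascent fat cell droplets, rose 2.32-fold with the deposited library totals, a call that no rescaling kept. In all, 1 of the 14 entries was called up and 3 were called down, where 13.5% of all genes were called, 12% up and 1.45% down. The 10 members with 10 reads or more in each library had a median log2 ratio of -0.19, with 3 higher and 7 lower, against 0.36 over all genes so filtered. Of the 7 lower, 2 are further heart-type entries, which may not be independent of FABP3. Of the 12 members with a log2 ratio, 10 lay below the median of genes of like length, among them all 3 further heart-type entries.

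**Figure D1:**
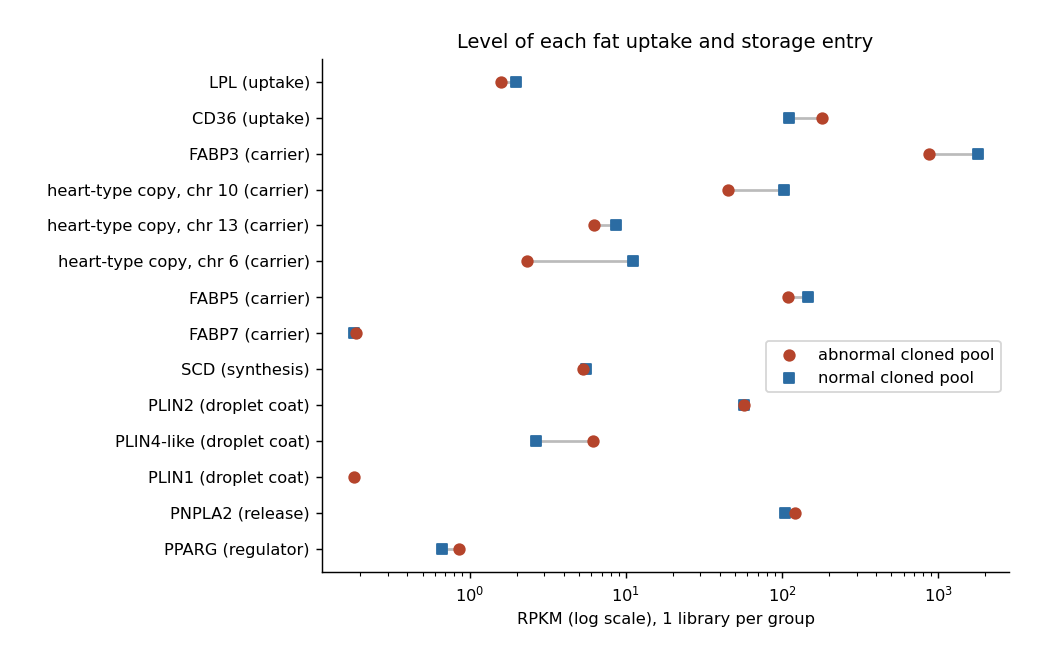
RPKM on a log scale (horizontal) of each member entry with a read, ordered by role, in the abnormal (circles) and normal (squares) cloned pools, 1 library each, with a grey line joining the values. FABP3 is the highest member in both pools, at 873.9 and 1781 RPKM, and PLIN1 has a read in the abnormal pool only.

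Uptake was represented by LPL and CD36. LPL, on chromosome 14 from 3826422 to 3856471 (build Sscrofa9, as for all positions here), was counted with 30 and 38 reads, or 1.60 and 1.98 RPKM. The log2 ratio was -0.31 with an interval from -0.99 to 0.37, so a difference was not detectable with these reads. LPL reads covered only 3.43% and 3.46% of the 2948-base transcript, that is 101 and 102 bases, where the same number of reads of 49 bases spread at random would cover 39.3% and 46.8%. Of the transcripts with 10 reads or more, 0.170% and 0.179% had no larger a share covered than LPL. The LPL values therefore describe a short stretch of the transcript and not the gene as a whole.

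CD36, the fatty acid translocase of muscle and capillary endothelium, lies on chromosome 9 (93201790 to 93249833). The abnormal pool gave 2659 CD36 reads and the normal pool 1663. Its level was 179.8 against 110.1 RPKM, and it moved from rank 438 in the normal to rank 329 in the abnormal library. The log2 ratio was 0.71 (0.62 to 0.80) with an Audic-Claverie FDR of 2.95e-55 after Benjamini-Hochberg adjustment, below the required fold. Reads covered 99.2% and 97.9% of the transcript. The genes of like length had a median log2 ratio of 0.46, so that 0.25 of the difference remained after the length correction. CD36 kept its direction under every scaling tried, with log2 ratios from 0.31 to 0.71.

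The carriers showed the largest difference by reads. FABP3, which shuttles fatty acids to the mitochondria in heart and skeletal muscle, lies on chromosome 6 (60233361 to 60265104) and is represented by a short transcript model of 246 bases. FABP3 reads numbered 1371 in the abnormal pool against 2855 in the normal pool. The level of 873.9 against 1781 RPKM took it from rank 42 in the normal to rank 83 in the abnormal library. The log2 ratio of -1.03 (-1.12 to -0.93) passed the DEG rule with an Audic-Claverie FDR of 6.10e-109 (Benjamini-Hochberg), although its interval reaches across the required ratio of -1. The genes of like length had a median of 0.10. Each rescaling lowers the log2 ratio of every gene by the same amount, so the FABP3 difference had to widen, to between -1.24 and -1.42. The length correction gave -1.12. With a biological variation of 0.4 or 0.2 assumed in edgeR's exact test, the call was lost.

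The other 3 heart-type entries are short, and each spans little more of the genome than its own transcript length. An entry annotated as a pseudogene on chromosome 10 (ENSSSCG00000010936, from 25268945 to 25269348) was hit by 114 and 267 reads, or 44.8 and 102.7 RPKM. Its log2 ratio of -1.20 (-1.51 to -0.88) was called down, and its reads lay on 75 and 76 of its 399 bases. An entry named as heart-like on chromosome 6 (ENSSSCG00000003546, from 56837152 to 56837553) was hit by 6 and 29 reads, at a log2 ratio of -2.24 (-3.47 to -1.01), also called down. A pseudogene on chromosome 13 (ENSSSCG00000011419, from 28465189 to 28465490) had 12 and 17 reads, with a log2 ratio of -0.47 (-1.51 to 0.57), and was not called.

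These copies were not taken as independent of FABP3, yet the counts and medians over all members given above include them. How alike their sequences are, and whether reads of one can fall on another, was not tested. FABP3 held 91.2% (Wilson interval 89.7% to 92.5%) of the abnormal pool's heart-type reads and 90.1% (89.0% to 91.1%) of the normal pool's, and the chromosome 10 copy held 7.58% and 8.43%. The intervals of these shares overlap. Taken as 1 gene, the heart-type entries summed to 1503 and 3168 reads, with a log2 ratio of -1.04 (-1.13 to -0.96), and counting them so leaves 1 member called down in place of 3.

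FABP5, the epidermal-type carrier found in skin, macrophages, endothelium and fat, lies on chromosome 4 (56776221 to 56781567). FABP5 was counted with 883 and 1221 reads, or 108.7 and 147.1 RPKM. The log2 ratio of -0.44 (-0.56 to -0.31) had an Audic-Claverie FDR of 5.59e-11 (Benjamini-Hochberg) but not the required fold. Under the rescalings it lay between -0.65 and -0.83, and genes of like length had a median of 0.25. FABP7, the brain-type carrier, had 1 read in each library, too few for any comparison.

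**Figure D2:**
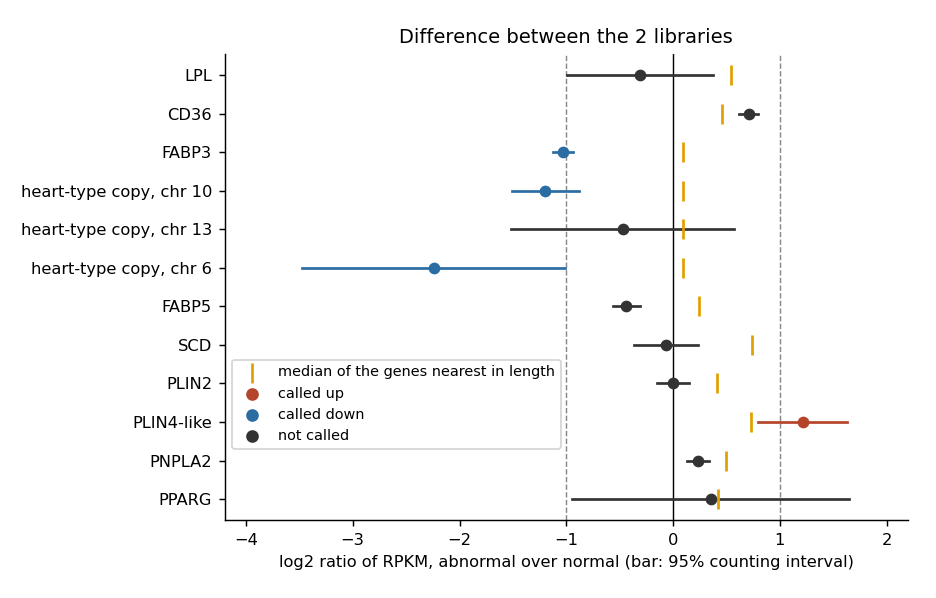
Log2 ratio of RPKM, abnormal over normal (horizontal), of the 12 members with more than 3 reads in either library, with 95% counting intervals as bars and the median of the genes nearest in length as a vertical tick. Dashed lines mark the required log2 ratios of -1 and 1. FABP3 and 2 heart-type copies are called down, the PLIN4-like entry is called up, and only CD36 and the PLIN4-like entry lie to the right of their tick.

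SCD, the desaturase that makes monounsaturated fatty acids for storage, lies on chromosome 14 (116330565 to 116346795). SCD was counted with 172 and 184 reads, or 5.28 and 5.53 RPKM. The log2 ratio was -0.07 (-0.37 to 0.23), while the genes nearest to its length of 5107 bases had a median of 0.74. Reads covered 63.7% and 42.5% of the SCD transcript, where 80.8% and 82.9% would be covered at random, so the normal library sampled this transcript less evenly.

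The droplet coats differed among themselves. PLIN2, the general coat protein of muscle lipid droplets, was counted with 670 and 685 reads (chromosome 1, from 212534018 to 212544645). At 56.8 and 56.9 RPKM its log2 ratio was -0.00, with an interval from -0.15 to 0.15, while genes of like length had a median of 0.41. Under the 5 rescalings the PLIN2 ratio lay between -0.22 and -0.39. The entry named as perilipin 4 (ENSSSCG00000013512, chromosome 2, from 48702269 to 48711216) had 152 and 67 reads, or 6.17 and 2.66 RPKM. Its log2 ratio of 1.21 (0.80 to 1.63) was called up with an Audic-Claverie FDR of 2.76e-08 (Benjamini-Hochberg). Under each of the 5 rescalings the ratio was 0.82 to 0.999 and the entry was not called, and after the length correction it was 0.48. PLIN1, the coat protein that defines mature fat cells, had 2 reads in the abnormal library only, which lies within the limit of 3 reads that a count of 0 allows.

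PNPLA2, the lipase that opens the hydrolysis of stored triglyceride, was counted with 1595 and 1389 reads (chromosome 2, from 148626 to 153498). At 121.5 and 103.6 RPKM the log2 ratio was 0.23 (0.13 to 0.33), not called, where genes of like length had a median of 0.50. The direction depended on scaling: it was -0.13 with median-ratio scaling, -0.16 with TMM and -0.017 without mitochondrial transcripts. The PNPLA2 span overlaps an entry named as a CD151 antigen-like gene with 639 and 551 reads, and the counting is not stated to use strand, so reads in the overlap cannot be assigned with certainty. PPARG, on chromosome 13 from 56789422 to 56859476, had 10 and 8 reads, or 0.852 and 0.667 RPKM. Its log2 ratio of 0.35 (-0.94 to 1.65) shows no detectable difference, and it turned to -0.0067 with median-ratio scaling and -0.040 with TMM. The PPARG reads covered 6.20% and 6.47% of the transcript, and an overlapping entry of the same name had 3 reads and 1 read. The PPARG values, like those of LPL, therefore describe a short stretch and not the gene as a whole.

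**Figure D3:**
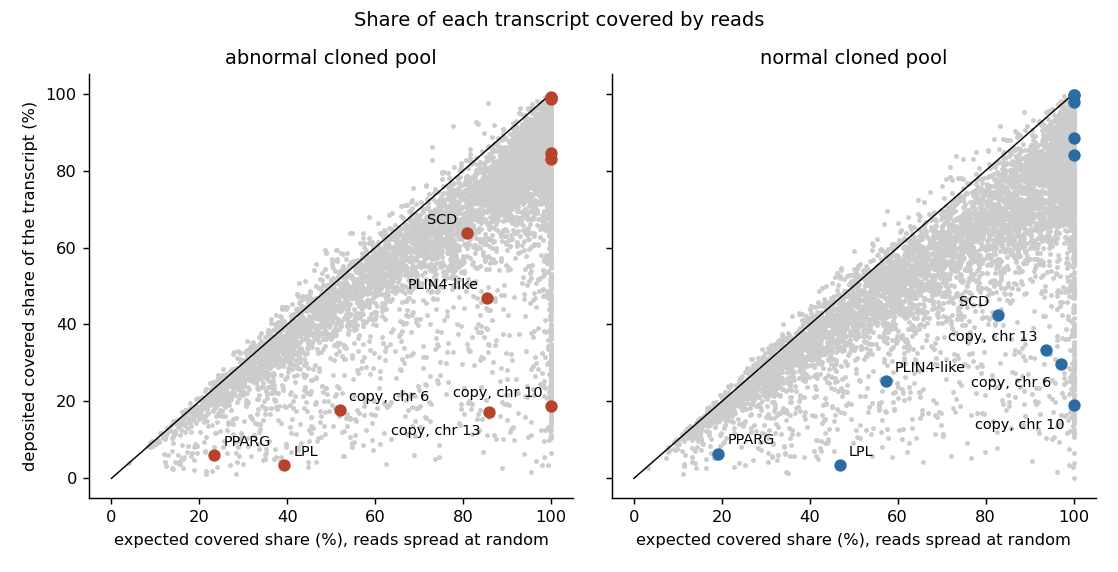
Share of each transcript covered by reads as deposited (vertical, %) against the share expected if the same reads fell at random (horizontal, %), for members (large points) and all transcripts with at least 10 reads (grey) in each pool. LPL, PPARG and the heart-type copies lie far below the line of equality, with LPL at 3.43% against 39.3% in the abnormal pool.

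In 5 of the 12 entries, LPL, PPARG and the 3 heart-type copies, the covered share was less than 0.5 times the random expectation in both libraries. CD36, FABP3, FABP5, PLIN2 and PNPLA2 were covered over 83.0% to 99.6% of their length, and the comparison of the members rests mainly on these 5.

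Ratios between members within a library are free of any scaling of the libraries, but not of the dependence on transcript length. The median log2 ratio of genes of like length was 0.10 for FABP3, 0.25 for FABP5, 0.41 for PLIN2 and 0.46 for CD36. For the PLIN4-like entry it was 0.73 and for SCD 0.74. The ratios below are not corrected for this. FABP3 stood at 16.2 times the RPKM of CD36 in the normal pool and at 4.86 times in the abnormal pool, a log2 difference of -1.74 (-1.86 to -1.61). Against PLIN2, FABP3 went from 31.3 to 15.4 times, a log2 difference of -1.03 (-1.21 to -0.85). CD36 against FABP5 turned over: CD36 was at 0.748 times the RPKM of FABP5 in the normal pool and at 1.65 times in the abnormal pool, a log2 difference of 1.14 (0.99 to 1.30). CD36 against PLIN2 differed by 0.71 (0.53 to 0.89) and the PLIN4-like entry against PLIN2 by 1.21 (0.77 to 1.66). SCD against PLIN2 differed by -0.07 (-0.40 to 0.27), an interval that holds 0.

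**Figure D4:**
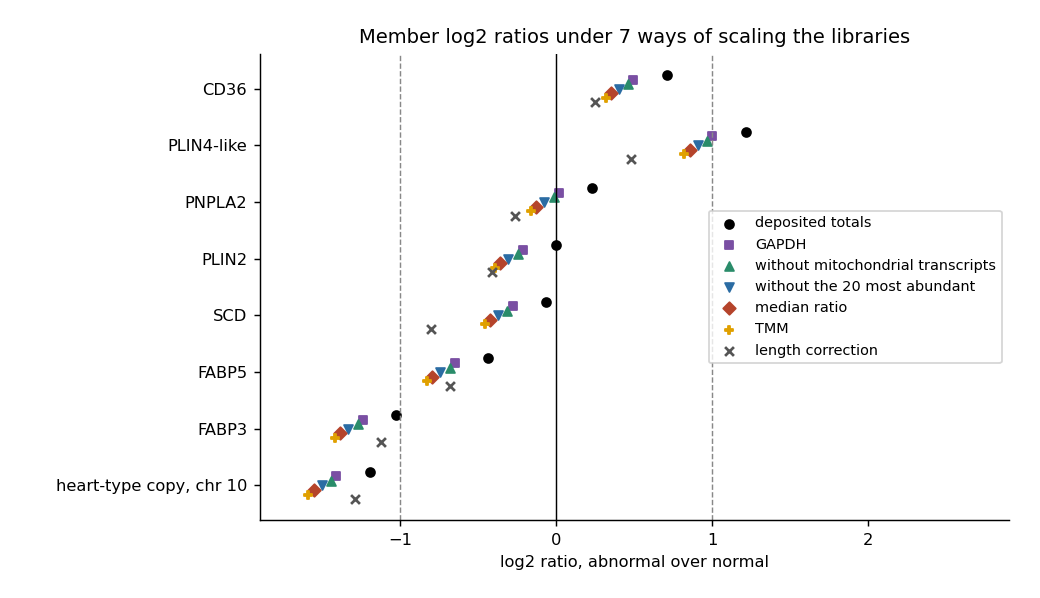
Log2 ratio, abnormal over normal (horizontal), of 8 members under the deposited totals, 5 rescalings of the libraries and the length correction (symbols). FABP3 stays at or beyond -1.03, CD36 stays above 0, PNPLA2 crosses 0, and the PLIN4-like entry lies above 1 only with the deposited totals.

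Over all genes, 12% were called up and 1.45% down. Grouped by cell, the 5 muscle-fibre genes (LPL, CD36, FABP3, PLIN2 and PNPLA2) held 1 DEG, FABP3, which was down. Their summed level was 1234 and 2054 RPKM, most of it FABP3. The 4 entries grouped as fat-cell genes (SCD, PPARG, PLIN1 and the PLIN4-like entry) held 1 DEG, the PLIN4-like entry, which was up. Their summed level was 12.5 and 8.86 RPKM, most of it from SCD and the PLIN4-like entry. PLIN1, the coat protein that defines mature fat cells, had 2 reads in the abnormal library only. SCD had 172 and 184 reads and the PLIN4-like entry 152 and 67. The class names therefore do not say which cells these reads came from, and LPL, CD36, PLIN2 and PNPLA2 are also expressed in fat cells. Which cells gave the reads of these entries was not measured. Fewer cells of a type and less RNA per cell cannot be told apart in these bulk samples.

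The levels of cell type markers were as follows, where 12% of all genes were called up and 1.45% down. Of 13 fat cell markers 8 had an entry and none was called, although AQP7 (13 and 38 reads) was called down under each of the 5 rescalings. Their summed RPKM was 50.9 and 53.2, nearly all of it CFD, the adipokine adipsin, with 339 and 341 reads. The defining fat cell genes were at or near 0: LEP had 1 read and none, CIDEC had 1 and 2 reads, TUSC5 had 2 and none, the hormone-sensitive lipase LIPE had 3 and 8, and PCK1, an enzyme of glycerol synthesis in fat cells, had 7 and 9. Among 7 entries of slow fibre markers, 5 were called down, with a median log2 ratio of -3.02 and a summed RPKM of 2202 against 17431. The slow regulatory light chain entry MLC2V gave the most, at 929.1 and 7553 RPKM. The slow myosin MYH7 had 120 and 1407 reads, which covered only 3.75% and 3.97% of its transcript. The 6 fast fibre entries summed to 50456 and 49904 RPKM, with 1 called up. FABP3, known to be richer in oxidative fibres, fell in the same library as the slow fibre markers, and their part in the FABP3 difference was not tested.

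Other cells that carry CD36 and FABP5 were measured through their markers, again beside 12% of all genes called up and 1.45% down. The 9 endothelium entries held no DEG and had a median log2 ratio of -0.10, with summed RPKM of 193.8 and 208.8. The 6 macrophage entries held no DEG (1 called down under 4 of the 5 rescalings) and had a median of -0.56, with 23.2 and 33.4 RPKM, and the 8 fibroblast entries, none called, had a median of -0.14. FABP5 was lower in the library in which the macrophage markers had the lower summed RPKM, although 2 of the 6 macrophage entries were higher there. CD36 was higher in that library, where 2 of the 9 endothelium entries were higher. The part of these cells in either difference was not tested.

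The neighbouring steps of the pathway were followed through 40 further genes, of which 30 had an entry, 34 entries in all. Of these 5 were called up and 1 down, or 14.7% and 2.94% of the entries, beside 12% and 1.45% of all genes, so the share called up was near the background. The 23 with 10 reads or more in each library had a median log2 ratio of -0.02, 11 of them higher in the abnormal library, against 0.36 over all genes. Under TMM scaling 4 were up and 6 down, so the balance of calls depended on the scaling.

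Fatty acid entry and activation held 18 entries with 1 DEG in each direction, where 12% of all genes were called up and 1.45% down. ACSL4, an acyl-CoA synthetase with a preference for arachidonic acid, rose with 402 against 101 reads and a log2 ratio of 2.02 (1.71 to 2.34). DBI, the acyl-CoA-binding protein that carries activated fatty acids, fell with 678 against 1621 reads and a log2 ratio of -1.23 (-1.36 to -1.10). ANGPTL4, an inhibitor of LPL, had 341 and 577 reads, with a log2 ratio of -0.73 (-0.92 to -0.53), not called with the deposited totals but called down with the median ratio (-1.09), with TMM (-1.12) and without the 20 most abundant transcripts (-1.04). ACSL1, the main muscle synthetase, had 1532 and 1588 reads, with a log2 ratio of -0.02, and its reads covered only 15.4% and 15.3% of the transcript.

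Triglyceride synthesis and storage held 12 entries with 3 called up and none down, where 12% of all genes were called up and 1.45% down. LPIN1, the phosphatidate phosphatase of muscle that makes diacylglycerol, rose with 276 against 45 reads and a log2 ratio of 2.65 (2.19 to 3.10). LPIN2 of the same family rose with 70 against 23 reads and a log2 ratio of 1.64 (0.96 to 2.31). That call was lost with TMM (1.24) and after the length correction (1.11). FITM2, an endoplasmic reticulum protein needed for droplet formation, rose with 133 against 23 reads and a log2 ratio of 2.56 (1.93 to 3.20). AGPAT1, an acyltransferase of phosphatidate synthesis, had 123 and 229 reads and was not called at -0.87, but was called down under each rescaling (-1.08 to -1.26). The acyltransferases of the last step, DGAT1 and DGAT2, were not called, with log2 ratios of 0.08 and 0.29, and FITM1, the muscle relative of FITM2, had 1032 and 1082 reads and a ratio of -0.04.

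Lipolysis held 4 entries with 1 DEG, which was up, where 12% of all genes were called up. ABHD5, the activator of PNPLA2, rose with 98 against 31 reads and a log2 ratio of 1.69 (1.11 to 2.27). G0S2, the inhibitor of PNPLA2, had 1 and 15 reads, a log2 ratio of -3.88 with a counting interval from -6.44 to -1.31. It was not called, with an Audic-Claverie FDR of 0.00136 (Benjamini-Hochberg). AQP7, the glycerol channel, had 13 and 38 reads, with a log2 ratio of -1.52 (-2.41 to -0.62), also not called. Both G0S2 and AQP7 were called down under each of the 5 rescalings and at an FDR of at most 0.05, which gives 2 entries down and 1 up.

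**Figure D5:**
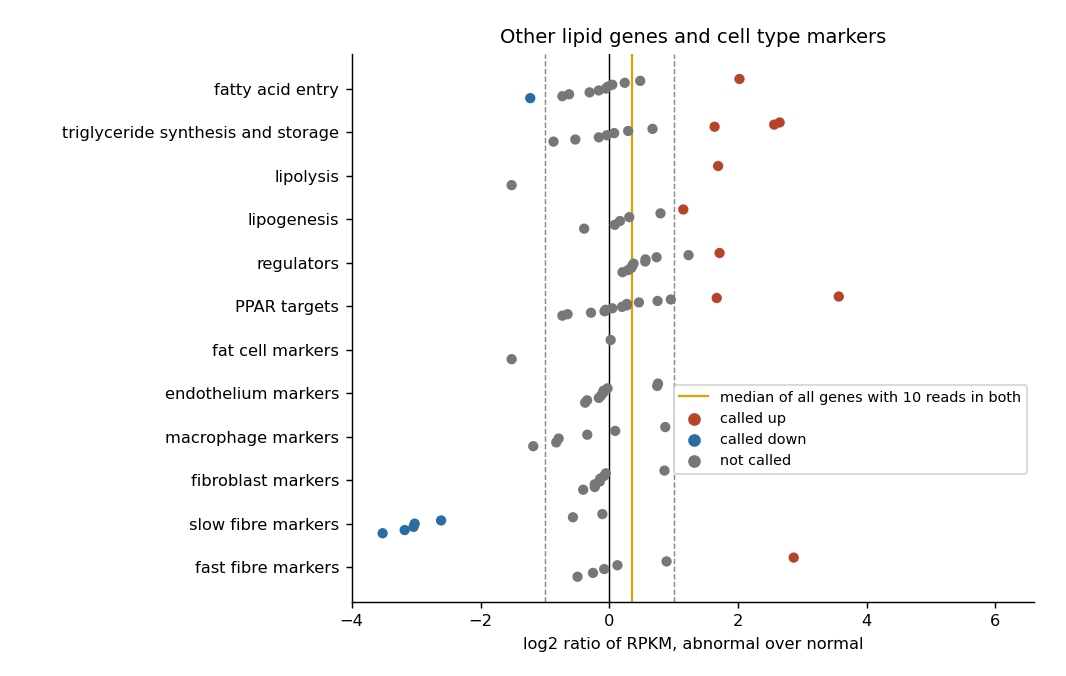
Log2 ratio of RPKM, abnormal over normal (horizontal), of the entries with 10 reads or more in each library, by list of lipid genes and cell type markers, with called entries coloured. The solid line at 0.36 is the median of all genes with that many reads. Of the 12 lists drawn, that of slow fibre markers holds the lowest value (-3.52), and the 3 pathway lists spread to both sides of 0.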

How the data were processed

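Poly(A) RNA of each pool was sequenced on an Illumina HiSeq 2000. The authors filtered the reads, mapped them with SOAPaligner/soap2 allowing 2 mismatches, and deposited the unique read counts per transcript, without normalization. They also deposited RPKM, the count divided by transcript length and library total, and the percent of each transcript covered, with Sscrofa9 positions. The release of the transcript set used for RNA-seq was not given in the sources used here. Transcripts listed in only 1 library were taken as 0 in the other.

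From the counts, a two-sided Audic-Claverie test was computed for 12535 genes with Benjamini-Hochberg adjustment, and 1692 genes were called. An RPKM of 0 was set to 0.001. Intervals are Wilson intervals at 95%, computed on how each gene's reads divide between the libraries. Read length (49 bases) was read from entries with 1 read, and the random expectation of coverage is that of reads placed uniformly. Groups came from the sample titles. The members and all lists were chosen with earlier results of these data known: every member is accounted for, and of each list the called genes and the defining markers were named, with the others chosen for their role. Lists are described by counts and medians and not tested. Scripts were tested on simulated data. Python 3.11.15, numpy 2.4.6, pandas 2.3.3, scipy 1.17.1, matplotlib 3.10.9, R 4.3.3 and edgeR 4.0.16 were used. No sequence was used here.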

Additional observations from a re-analysis of the deposited data

How the results depend on the processing

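With 1 library per group nothing separates the groups from differences between the pools, and edgeR's exact test needs an assumed variation. No paired analysis was possible because each group has 1 library and the labels give no replicate numbers, and no library could be left out. Low read counts limited LPL, PPARG, PLIN1, FABP7 and 2 heart-type copies. For LPL, PPARG and the copies the reads also lay on a short stretch of the transcript, so the limit is not one of depth alone. Of the alternatives, Fisher's exact test, a pseudocount of 0.1 and a filter of 10 reads in each library changed no call among the members they kept (the read filter drops the chromosome 6 copy). The length correction and the summing of the heart-type entries were chosen after seeing the data. The cause of the changes below was not tested beyond what the settings themselves do.

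Rescaling lowered every log2 ratio by 0.36 (median ratio), 0.39 (TMM), 0.25 (totals without mitochondrial transcripts), 0.31 (without the 20 most abundant transcripts) or 0.21 (GAPDH). The number of all genes called up, 1510 with the deposited totals, was 812, 751, 987 and 882 under the first 4 of these, and the number called down, 182, was 498, 548, 369, 424 and, with GAPDH, 337. The length correction gave 763 up and 462 down, a log2 ratio of at least 2 gave 415 and 42, and an FDR of at most 0.05 gave 342 down. edgeR's exact test called 2 up and 1 down with an assumed variation of 0.4, and 243 and 20 with 0.2.

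The PLIN4-like entry, the only member and only fat-cell entry called up (1.21), was at 0.85 with the median ratio, 0.82 with TMM, 0.97 without mitochondrial transcripts, 0.91 without the 20 most abundant, 0.999 with GAPDH (just under the threshold), 0.97 with a pseudocount of 1 and 0.48 after the length correction. In each of these, as with a log2 ratio of at least 2 and both edgeR tests (1.21 each), 0 members and 0 fat-cell entries were called up. Of the 3 members called down, 0 were called by edgeR at either variation, 1 (the chromosome 6 copy) at a log2 ratio of at least 2, and 1 with the heart-type entries summed. FABP3 (-1.03) and the chromosome 10 copy (-1.20) lost their calls in both edgeR tests and at a log2 ratio of at least 2, where 0 muscle-fibre entries were called down. The chromosome 6 copy (-2.24) lost its call in both edgeR tests. At an unadjusted p under 0.05, edgeR counted 1 member with a variation of 0.4 and 4 with 0.2. PNPLA2 turned from 0.23 to -0.13 with the median ratio, -0.16 with TMM, -0.017 without mitochondrial transcripts, -0.077 without the 20 most abundant and -0.27 after the length correction. PPARG turned from 0.35 to -0.0067, -0.040 and -0.064 with the median ratio, TMM and the length correction. The other 128 of 154 recomputed member ratios kept their direction and their side of the threshold.

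Of the 3 pathway lists, 5 entries were called up: 0 and 3 in the edgeR tests at 0.4 and 0.2, and 3 at a log2 ratio of at least 2. The 1 called down became 5 with the median ratio, 6 with TMM, 4 without mitochondrial transcripts, 5 without the 20 most abundant, 4 with GAPDH, 3 at an FDR of at most 0.05, 5 after the length correction, and 0 in both edgeR tests and at a log2 ratio of at least 2.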

Other observations

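The lipid regulators and the genes under PPAR control were measured as well. The regulator list had entries for 14 of 17 genes, 15 entries, with 1 called up and none down, beside 12% and 1.45% of all genes. PPARA, the fatty acid sensor of oxidative tissue, rose with 106 against 33 reads and a log2 ratio of 1.71 (1.15 to 2.27). The PPARA call was lost in both edgeR tests and at a log2 ratio of at least 2. PPARD, its relative in muscle, had 23 and 10 reads, with a log2 ratio of 1.23 (0.18 to 2.28), not called, and its reads covered 4.23% and 3.89% of the transcript. An overlapping PPARD entry had 3 and 4 reads, with a log2 ratio of -0.38. All 10 regulator entries with 10 reads or more in each library were higher in the abnormal library, with a median of 0.47 against 0.36 over all genes. Under median-ratio or TMM scaling each of these ratios is lower by 0.36 or 0.39, and those of PPARGC1B (0.29), CEBPB (0.34), NR1H3 (0.36) and NCOR1 (0.21) turn below 0, as does ADIPOR1 (0.38) with TMM.

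Of 14 entries for genes known to respond to PPARs in muscle, 2 were called up and none down, beside 12% and 1.45% of all genes. Their median log2 ratio was 0.24, below the 0.36 over all genes with 10 reads or more in each library. The median of their like-length medians was 0.46. PDK4, the kinase that blocks pyruvate oxidation, rose with 7294 against 629 reads and a log2 ratio of 3.57 (3.45 to 3.68). UCP3, an inner membrane carrier of muscle mitochondria, rose with 215 against 69 reads and a log2 ratio of 1.67 (1.28 to 2.06). The UCP3 call was lost in both edgeR tests and at a log2 ratio of at least 2, and that of PDK4 in edgeR's test at 0.4. ANGPTL4 and UCP2 had log2 ratios of -0.73 and -0.65 and were not called, but both were called down with the median ratio (-1.09 and -1.01) and with TMM (-1.12 and -1.04), which gives 2 up and 2 down. The lipogenesis list had entries for 7 of 13 genes, and of its 9 entries ACACB, the mitochondrial acetyl-CoA carboxylase that makes malonyl-CoA, was called up with 552 and 254 reads and a log2 ratio of 1.15 (0.94 to 1.36), where genes of its length had a median of 0.72. The ACACB call was lost under each of the 5 rescalings (0.76 to 0.94), after the length correction (0.43) and in both edgeR tests.

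The liver and plasma list, held as a check of blood or liver RNA, had 5 entries. ALB fell with 12 against 271 reads, AHSG had no read against 34, and APOA1 had 298 and 281 reads. Of the 6 muscle fibre marker entries, which stand for 3 of 6 genes, 2 for NEB were called up and 1 for TTN down. Over all genes, 12% were called up and 1.45% down. The TTN entry called down is 2288 bases long, with 304 and 678 reads. The main TTN entry, of 103484 bases, had 119816 and 128618 reads and was not called, at a log2 ratio of -0.07. A further NEB entry was not called, at 0.81. CKM, DES and MB had no entry, which are abundant transcripts of muscle, so the lack of an entry for FABP4 and ADIPOQ is no measure of their RNA.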
